A study of Mus musculus with 7 samples.

Results

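A group of 10 genes for heat shock proteins and related chaperones was followed in chromatin-associated RNA of mouse embryonic stem (mES) cells treated with STM2457, an inhibitor of the RNA methyltransferase METTL3. The genes were taken by symbol as Hspa1a, Hspa1b, Hspa8, Hspa5, Hsph1, Hsp90aa1, Hsp90ab1, Dnajb1, Hspd1 and Hspe1, and all 10 were found among the 22556 genes of the expression table. A mean of at least 1 RPM (read pairs scaled to the library's total on genes) over the libraries, the filter for testing, was reached by 8 of the 10 and by 13599 genes in all. The method was ChrRNA-seq, the sequencing of RNA bound to chromatin, which is rich in transcripts still being made. The cells were of a single clone, C7H8, with XX karyotype and a Cast x 129S background, in which a TetOn promoter on the Cast allele replaces that of endogenous Xist, and they were grown with inactivated mouse fibroblasts as feeders. DMSO (3 libraries), 10 µM STM2457 (2 libraries), 20 µM (1 library) or 30 µM (1 library) was given for 6 h and kept for a further 24 h with doxycycline (Dox), so all 7 libraries come from cells with Xist induced. The single libraries at 20 µM and 30 µM have no replicate check.

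Chaperones are proteins that help others to fold and stop them from clumping. In the cytosol, Hsp70 proteins bind unfolded chains with the help of J-domain partners and of Hsp110 exchange factors, and Hsp90 proteins finish the folding of kinases, receptors and other clients. The endoplasmic reticulum (ER) and the mitochondria hold their own sets. Heat or misfolded protein raises many of these genes through the transcription factor HSF1, which binds repeats of the letters GAA and TTC, while ER stress raises the ER set through its own promoter element. Some members, such as Hspa8 and Hsp90ab1, are expressed at high levels without stress.

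The libraries held 9300549 (20 µM) to 28030180 (DMSO replicate 2) read pairs on genes. Their main axis of variation did not follow dose alone. The first principal component of 13095 autosomal genes, the members left out, held 78.83% of the variance and set both 10 µM libraries with DMSO replicates 1 and 2 (set 1), and the 20 µM and 30 µM libraries with DMSO replicate 3 (set 2). DMSO replicate 3 is the only untreated library of set 2. It was taken as the control of the 20 µM and 30 µM libraries because an earlier look at these data had placed it nearest to them in expression. The labels do not say what the sets are. The 20 µM library stood apart further. In it, 5 genes (Lars2, Cmss1, Gphn, Cdk8 and Camk1d) took 8.92% of read pairs, against 1.16% in DMSO replicate 3, 0.700% at 30 µM and 0.212% to 0.237% in set 1. The 82 ribosomal protein genes took 0.431% of it, against 0.314% and 0.298% in DMSO replicate 3 and at 30 µM and 0.538% to 0.749% in set 1. The sum over 12 ES cell markers ran from 1806 RPM (20 µM) to 2298 RPM (10 µM replicate 2), with Sox2 listed at 0 throughout. The sum over 14 fibroblast markers was 943 to 1215 RPM in set 1 and 462 to 642 RPM in set 2, most of it Fn1, and 7 of them, Col1a1, Col1a2 and Col3a1 included, had a mean under 1 RPM. The part of these differences in the results below was not tested.

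Promoter windows from RefSeq (build GRCm38.p6, 250 bases before to 50 bases after a transcription start) were matched by symbol for 7 of the 10 genes, and those with a searched motif are shown because they hold the letters bound by the regulators named above. Both strands were searched for the heat shock element as GAANNTTC or TTCNNGAA, found in 15.1% of the 32851 windows of all genes, for its longer form of 3 alternating units, GAANNTTCNNGAA or TTCNNGAANNTTC, found in 0.603%, and for the ER stress element, CCAAT and CCACG with 9 bases between them, found in 0.119%. The longer form contains the shorter one. Hspd1 and Hspe1, which encode the mitochondrial chaperonin and its lid, lie head to head on chromosome 1 with RefSeq starts at 55087932 (minus strand) and 55088148 (plus strand), and the run between them holds 4 alternating units, with GAA and TTC in capitals below. Hspd1 has another RefSeq start at 55088243, whose window holds no match to the searched motifs and from which the printed run lies downstream. This run also overlaps an annotated exon of Hspd1, and those of Hspa5 and Hsph1 overlap annotated exons of these genes. The annotated Hsph1 gene begins within its run, at 149636376 on the minus strand. The Hspa1a and Hspa1b runs lie before the first exon.
Hspd1 and Hspe1, chr1:55088053-55088082, plus strand: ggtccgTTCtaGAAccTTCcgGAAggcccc
Hsph1, chr5:149636351-149636380, minus strand: gggtagaatctTTCtcGAAggctcgagaag
Hspa1a, chr17:34972247-34972376, minus strand: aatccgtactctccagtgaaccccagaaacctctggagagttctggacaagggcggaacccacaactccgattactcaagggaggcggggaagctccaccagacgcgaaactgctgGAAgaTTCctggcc
Hspa1b, chr17:34959329-34959458, minus strand: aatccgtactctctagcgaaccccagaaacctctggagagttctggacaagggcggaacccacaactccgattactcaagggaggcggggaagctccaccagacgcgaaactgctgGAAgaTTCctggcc
Hspa5, chr2:34772020-34772049, plus strand: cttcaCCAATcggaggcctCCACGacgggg

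Capitals mark the units of the heat shock element in the first 4 runs and the ends of the ER stress element in that of Hspa5, where it begins 65 bases before the RefSeq start. The Hspa1a and Hspa1b runs show how alike these genes are. Their 250 bases before the start were 98.8% identical, with 3 differences, of which C14T and T17C (the Hspa1a base, the position from the 5′ end of the printed run, the Hspa1b base) lie in the runs shown. Hsph1 has a match to the longer form, 36 to 48 bases after one of its RefSeq starts and 15 to 27 bases after the other, and Dnajb1 had no match to any of these motifs in its windows. A match describes letters and is not evidence that a factor bound there.

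The members differed widely in level and in how far their counts can be trusted. Per kilobase of the counted span, the DMSO libraries ordered the genes as Hsp90aa1 (109 ± 11.7 RPM per kb, SD, n = 3), Hspa8 (75.9 ± 17.2), Hsp90ab1 (46.7 ± 7.94), Hspd1 (18.4 ± 5.13), Hspa5 (11.7 ± 1.32), Hsph1 (8.54 ± 0.580), Hspe1 (6.73 ± 1.32), Dnajb1 (1.37 ± 0.706), Hspa1b (0.124 ± 0.0650) and Hspa1a (0.0481 ± 0.0300). The ranges over the DMSO libraries overlapped between Hsph1 and Hspe1 and between Hspa1b and Hspa1a, and no other neighbours overlapped. Read pairs with a unique alignment were counted, so genes with near-identical copies can lose reads. Of all 81-base windows of the annotated transcripts, 60.6% for Hspa1a and 54.4% for Hspa1b were also in transcripts of other genes, mostly of each other. For Hsp90aa1, Hspa8, Hspd1 and Hspe1 this share was 41.7%, 31.7%, 29.1% and 13.6%, mostly with a single pseudogene or gene model each. It was 0.177% for Hsp90ab1 and 0% for Hspa5, Hsph1 and Dnajb1. The levels of the members that share windows are therefore uncertain.

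**Figure D1:**
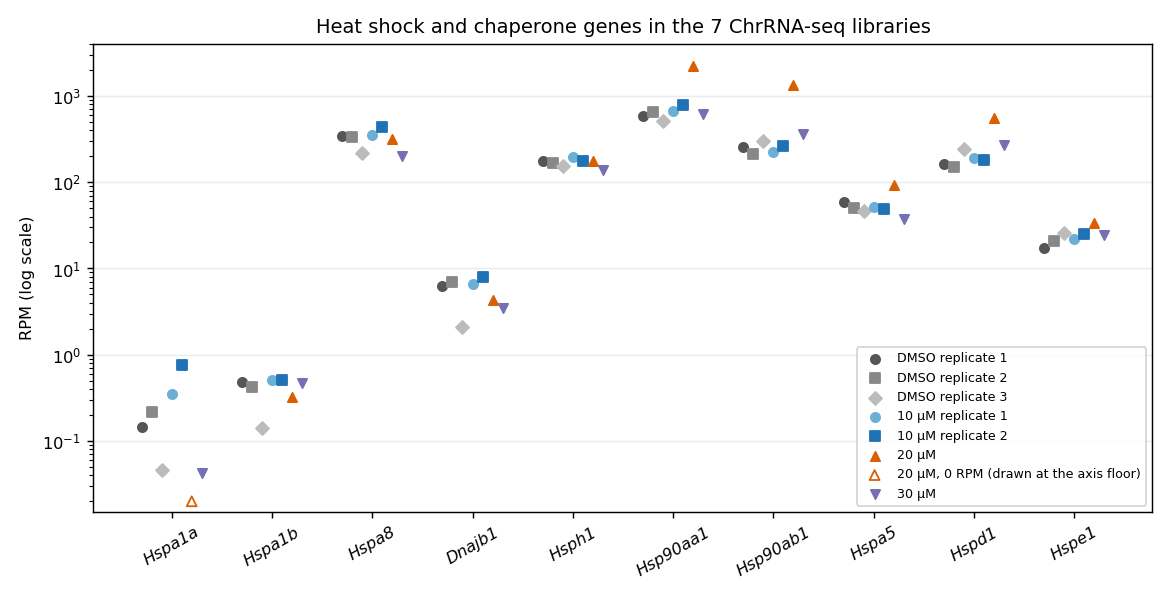
RPM of each of the 10 genes (x axis) on a log scale (y axis) in the 7 libraries, 1 point per library. The 20 µM library is highest for Hsp90aa1, Hsp90ab1, Hspd1, Hspa5 and Hspe1, and the 30 µM library lies near the DMSO libraries for these genes. Hspa1a, with 0 RPM at 20 µM, is drawn as an open symbol at the axis floor.

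Hspa1a and Hspa1b encode the stress-inducible cytosolic Hsp70, from intron-less genes on the minus strand of chromosome 17 (34969359 to 34972156 and 34956429 to 34959238 in mm10). Both were close to the detection limit in every library. Hspa1a had 0.143, 0.214 and 0.0466 RPM in DMSO replicates 1, 2 and 3, 0.355 and 0.767 RPM at 10 µM, 0 at 20 µM and 0.0428 RPM at 30 µM, from 38 read pairs in all. A count of 0 in the 20 µM library allows up to 0.323 RPM (3 read pairs). Hspa1b had 0.478, 0.428 and 0.140 RPM in DMSO, 0.512 and 0.511 RPM at 10 µM, 0.323 RPM at 20 µM and 0.471 RPM at 30 µM, from 64 read pairs. For Hspa1a, 10 µM replicate 2 over DMSO replicate 2 came to 3.58-fold, from 18 and 6 read pairs, with an exact 95% interval of 1.36 to 11.0, and replicate 1 to 2.47-fold (0.617 to 14.2). These intervals, like all intervals of single libraries here, cover counting error only. Both fell below the filter of 1 RPM and so are not among the 8 members tested. With no filter, limma gave log2(RPM + 1) differences at 10 µM of 0.45 (SE 0.14, adjusted p = 0.815) for Hspa1a and 0.17 (SE 0.13, adjusted p = 0.815) for Hspa1b, of which Hspa1a alone had an unadjusted p under 0.05. The slopes per 10 µM in the same fit were -0.05 (adjusted p = 0.798) and 0.03 (adjusted p = 0.787). Over the 3 read pairs of DMSO replicate 3, Hspa1b came to 2.31-fold (0.309 to 17.2) at 20 µM and 3.37-fold (0.890 to 18.8) at 30 µM, and both intervals include 1.

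Hspa8 encodes the constitutive cytosolic Hsp70 and spans 40801273 to 40805199 on the plus strand of chromosome 9. It had 339.5, 335 and 220.2 RPM in DMSO replicates 1 to 3, 357 and 431 RPM at 10 µM, 316 RPM (95% Wilson interval 304 to 327) at 20 µM and 202 RPM (196 to 208) at 30 µM. The 2 lowest values belonged to DMSO replicate 3 and the 30 µM library. Both 10 µM libraries lay above all DMSO libraries, and the 20 µM library lay within the DMSO range.

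Dnajb1 encodes Hsp40, the J-domain partner that brings unfolded protein to Hsp70 (chromosome 8, 83608175 to 83611903, plus strand). It had 6.22, 6.99 and 2.10 RPM in DMSO, 6.58 and 7.97 RPM at 10 µM, 4.30 RPM (3.16 to 5.86) at 20 µM and 3.47 RPM (2.79 to 4.31) at 30 µM. DMSO replicate 3, with 45 read pairs, was 0.337-fold and 0.300-fold the value of replicates 1 and 2, so that the groups overlapped. Hsph1 encodes Hsp110, the factor that exchanges nucleotide on Hsp70 (chromosome 5, 149616845 to 149636315, minus strand). Its levels were the most even among the members, at 177, 167 and 155 RPM in DMSO, 195 and 177 RPM at 10 µM, 175 RPM (167 to 184) at 20 µM and 139 RPM (134 to 144) at 30 µM.

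Hsp90aa1, the inducible cytosolic Hsp90 (chromosome 12, 110691036 to 110696395, minus strand), was the most abundant member. It had 592, 643 and 519 RPM in DMSO, 675 and 791 RPM at 10 µM, 2195 RPM (2165 to 2225) at 20 µM and 625 RPM (615 to 635) at 30 µM. The 20 µM library lay 2.78-fold above the next highest library. Hsp90ab1, the constitutive form (chromosome 17, 45567778 to 45573261, minus strand), had 255, 213 and 301 RPM in DMSO, 226 and 265 RPM at 10 µM, 1352 RPM (1329 to 1376) at 20 µM and 359 RPM (352 to 367) at 30 µM. Its 20 µM value was 3.76-fold above the next highest, which was at 30 µM. Both 10 µM libraries fell within the DMSO range of Hsp90ab1 and above that of Hsp90aa1.

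Hspa5 encodes BiP, the Hsp70 of the ER (chromosome 2, 34772090 to 34776529, plus strand). It had 58.2, 50.6 and 46.7 RPM in DMSO, 51.4 and 48.9 RPM at 10 µM, 92.8 RPM (86.8 to 99.2) at 20 µM and 37.1 RPM (34.7 to 39.7) at 30 µM. The 20 µM library was the highest of the 7 and the 30 µM library the lowest. Hspd1 encodes Hsp60, the mitochondrial chaperonin (chromosome 1, 55077834 to 55087932, minus strand), with 163, 149 and 245 RPM in DMSO, 189.9 and 181 RPM at 10 µM, 548 RPM (533 to 563) at 20 µM and 269 RPM (263 to 276) at 30 µM. Hspe1 encodes its lid, Hsp10 (chromosome 1, 55088148 to 55091317, plus strand), with 17.5, 20.8 and 25.8 RPM in DMSO, 22.2 and 25.0 RPM at 10 µM, 34.1 RPM (30.5 to 38.0) at 20 µM and 24.4 RPM (22.5 to 26.5) at 30 µM. Among the DMSO libraries both genes of this head-to-head pair were highest in replicate 3, at 1.51-fold (Hspd1) and 1.48-fold (Hspe1) the value of replicate 1, and the 20 µM library was the highest of all.

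Together the 10 genes took 0.161%, 0.159% and 0.151% of read pairs in the DMSO libraries and 0.172% and 0.193% at 10 µM. Their share was 0.472% in the 20 µM library and 0.166% in the 30 µM library. The Hsp90 pair alone took 0.355% at 20 µM and 0.0819% to 0.106% in the other 6 libraries. In bulk RNA of this kind, more cells with a transcript and more transcript per cell cannot be told apart.

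The comparison of 10 µM STM2457 with DMSO (2 against 3 libraries) asked whether the lowest dose moved these genes. On the log2(RPM + 1) scale, which understates the change of low genes, none of the 8 members tested passed an adjusted p of 0.05 in limma, and neither did any other gene (0 of 13599, or 0%, with 212 at an unadjusted p under 0.05). None of these 8 members had an unadjusted p under 0.05, and on the recovered read pairs edgeR called no gene and DESeq2 called 1, not a member. Differences in log2 units were 0.55 (SE 0.44) for Dnajb1, 0.42 (SE 0.22) for Hspa8, 0.33 (SE 0.15) for Hsp90aa1, 0.16 (SE 0.13) for Hsph1 and 0.15 (SE 0.23) for Hspe1, with adjusted p of 0.811 to 0.840 in limma. They were 0.03 (SE 0.23) for Hspd1, -0.04 (SE 0.16) for Hspa5 and -0.05 (SE 0.18) for Hsp90ab1, with adjusted p of 0.924 to 0.964. The median over the members was 0.16, against 0.09 over all genes tested.

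Replicates 1 and 2 of DMSO and 10 µM were split from the same batches of cells, and the fit that pairs them, on these 4 libraries alone, gave a different result for 3 members. With the replicate block, limma called Hsp90aa1 (0.24, SE 0.06, adjusted p = 0.00393), Hspd1 (0.25, SE 0.07, adjusted p = 0.00759) and Hspa8 (0.22, SE 0.06, adjusted p = 0.0146) higher at 10 µM, which are increases of 14.0% and 23.0%, 16.8% and 21.4%, and 5.03% and 28.7% in the RPM of the pairs. The same fit called 4.13% of all genes tested higher and 3.38% lower, and none of the members lower. Of the 7 fibroblast markers tested, this replicate-block fit in limma called 1 lower, Fn1 (-0.26, SE 0.06, adjusted p = 0.00157), a gene of the extracellular matrix with 1092 and 1148 RPM in DMSO replicates 1 and 2 and 869 and 999.9 RPM at 10 µM. The part of this in the members' values was not tested. The fit has 1 residual degree of freedom per gene and leaves out DMSO replicate 3. Through eBayes its SEs come almost wholly from the variances of all genes at a like level. The SEs and calls therefore do not reflect how far the 2 pairs of a gene differ, as with 5.03% and 28.7% for Hspa8. Hspe1 (0.29, adjusted p = 0.153), Hsph1 (0.11, adjusted p = 0.357), Dnajb1 (0.12, adjusted p = 0.749), Hsp90ab1 (0.07, adjusted p = 0.598) and Hspa5 (-0.11, adjusted p = 0.526) did not pass it in limma. Of the 8 members, 6 were higher at 10 µM in both pairs and 1, Hspa5, was lower in both, while 36.3% and 26.9% of all genes tested were so. Hsp90ab1 was at 0.887-fold in pair 1 and at 1.24-fold in pair 2.

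**Figure D2:**
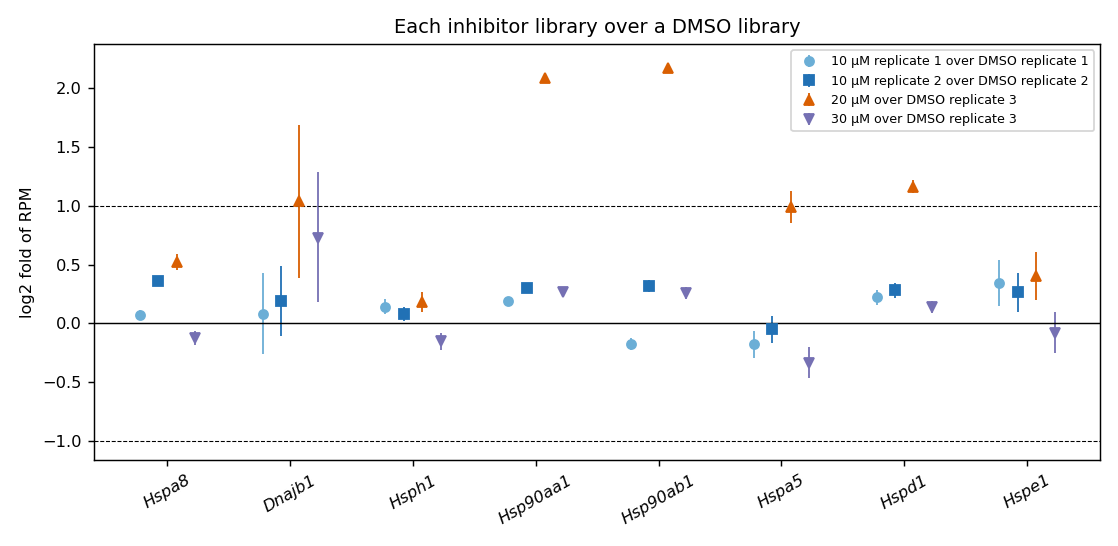
Log2 fold of RPM (y axis) of each inhibitor library over a DMSO library for the 8 members tested (x axis), with exact 95% counting intervals as bars and dashed lines at 2-fold. Hsp90aa1 and Hsp90ab1 at 20 µM stand at 2.08 and 2.17, and the 10 µM and 30 µM points lie between -0.33 and 0.73.

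The dose trend over all 7 libraries asked whether the members' levels rose or fell with concentration. The mean dose of the libraries is 10 µM, so with dose as the only term in limma the 10 µM libraries have no weight in the slope. Each slope then rests on DMSO against the single libraries at 20 µM and 30 µM. Leaving out either 10 µM replicate gave the same slopes, such as 0.43 for Hsp90ab1. No member passed the dose trend. In limma, slopes per 10 µM were 0.43 (SE 0.24, adjusted p = 0.508) for Hsp90ab1, 0.34 (SE 0.16, adjusted p = 0.508) for Hspd1, 0.26 (SE 0.19, adjusted p = 0.530) for Hsp90aa1 and 0.13 (SE 0.10, adjusted p = 0.528) for Hspe1. Without the 20 µM library these 4 slopes were 0.16, 0.18, 0.05 and 0.07 (adjusted p of 0.839 to 0.865 in limma), and without the 30 µM library 0.95, 0.64, 0.83 and 0.30 (adjusted p = 0.877). On read pairs, the slopes of Hsp90ab1 and Hsp90aa1 were larger, at 0.71 and 0.51 in edgeR and 0.69 and 0.49 in DESeq2, and neither tool called them. Slopes of the other 4 in limma ran from -0.12 (Hspa8) to -0.01 (Hspa5). Without DMSO replicate 3, those of Dnajb1 (-0.27, adjusted p = 0.0881 in limma) and Hspa8 (-0.22, adjusted p = 0.090 in limma) were further below 0. The slope of Hspd1 was then 0.42 (adjusted p = 0.0682 in limma). Dnajb1, Hspa8 and Hspd1 each had an unadjusted p under 0.05 in that fit, which called 2485 of the 13599 genes and no member. With all 7 libraries, no gene of the 13599 passed in limma (0%). An unadjusted p under 0.05 was reached by 1174, none of them among the 8 members. edgeR called none and DESeq2 129, again without a member. With the library set as a term, limma called 0.199% of genes and no member, and the slopes of Hsp90ab1, Hspd1 and Hsp90aa1 became 0.20, 0.14 and 0.23. The members high at 20 µM did not go on rising. At 20 µM over 30 µM the ratio was 3.76 for Hsp90ab1 (exact 95% interval 3.66 to 3.87), 3.51 for Hsp90aa1 (3.44 to 3.59), 2.50 for Hspa5 (2.27 to 2.75), 2.03 for Hspd1 (1.96 to 2.11) and 1.40 for Hspe1 (1.21 to 1.61).

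The 20 µM and 30 µM libraries were set beside DMSO replicate 3, which they share as a control, with no test. At 20 µM, 4 of the 8 members were more than 2-fold higher, where 3.17% of all genes tested were, and none was more than 2-fold lower, where 3.23% of all genes were. Hsp90ab1 was at 4.50-fold (4.37 to 4.64), Hsp90aa1 at 4.23-fold (4.14 to 4.33), Hspd1 at 2.24-fold (2.15 to 2.32) and Dnajb1 at 2.05-fold (1.31 to 3.21), and Hspa5 lay just under the threshold at 1.99-fold (1.81 to 2.18). Scaled with TMM factors, which set libraries level on most genes rather than on their totals, Hspa5 came to 2.04-fold. This makes 5 members past 2-fold. In RPM over DMSO replicate 1, replicate 2 or the mean of DMSO the count was 3. With TMM factors, Hspe1 was also past 2-fold over DMSO replicate 1 (2.29-fold) and Hspa5 over replicate 2 (2.10-fold). The 3.17% of all genes holds for RPM over DMSO replicate 3 only. The share of all genes was not counted with TMM factors or over the other controls, so the member counts there cannot be set against it. In RPM over DMSO replicate 3, Hsp90ab1 and Hsp90aa1 ranked 35 and 40 from the top of the 13599 genes. Hspa8 was at 1.43-fold (1.37 to 1.50), Hspe1 at 1.32-fold (1.15 to 1.52) and Hsph1 at 1.13-fold (1.07 to 1.20). The median log2 fold was 1.01 over the members and -0.11 over all genes tested.

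In RPM, the choice of control turned the direction for Dnajb1, Hspa8 and Hsph1. Against DMSO replicates 1 and 2, the 20 µM library had 3.71-fold and 3.41-fold the Hsp90aa1 level, 5.31-fold and 6.33-fold that of Hsp90ab1 and 3.37-fold and 3.67-fold that of Hspd1, but 0.692-fold and 0.615-fold that of Dnajb1, so Dnajb1 was past 2-fold only over DMSO replicate 3. Hspa8 was at 0.929-fold and 0.943-fold of these libraries and Hsph1 at 0.989-fold and 1.05-fold. With TMM factors, Hspa8 stood at 1.09-fold and 1.08-fold and Hsph1 at 1.16-fold and 1.20-fold, so neither turned. Dnajb1 still did, at 0.812-fold and 0.705-fold. The 20 µM library was above all 6 others for 5 of the 8 members, where 9.27% of all genes tested were. This is the shallowest library and the one in which 5 genes took 8.92% of read pairs, and the part of this in the members' values was not tested.

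At 30 µM no member passed 2-fold against DMSO replicate 3 in either direction, where 2.35% of all genes tested were higher and 1.34% lower. Dnajb1 was at 1.65-fold (1.14 to 2.44), Hsp90aa1 at 1.21-fold (1.18 to 1.24), Hsp90ab1 at 1.20-fold (1.16 to 1.24) and Hspd1 at 1.10-fold (1.06 to 1.14). Hspe1 was at 0.947-fold (0.841 to 1.07), Hspa8 at 0.918-fold (0.881 to 0.956), Hsph1 at 0.900-fold (0.857 to 0.945) and Hspa5 at 0.794-fold (0.724 to 0.871). Over DMSO replicates 1 and 2 the direction turned for Dnajb1 (0.558-fold and 0.496-fold) and Hspe1 (1.40-fold and 1.17-fold). In RPM it also turned for Hsp90aa1 over replicate 2 alone (1.06-fold and 0.972-fold). With TMM factors Hsp90aa1 did not turn, at 1.17-fold and 1.05-fold over these libraries. In RPM over DMSO replicates 1 and 2, Hspd1 was at 1.66-fold and 1.81-fold and Hsp90ab1 at 1.41-fold and 1.68-fold. Hspa8 was at 0.595-fold and 0.604-fold, Hspa5 at 0.638-fold and 0.734-fold and Hsph1 at 0.786-fold and 0.832-fold. Over DMSO replicate 3, the median log2 fold over the members was 0.03, against 0.05 over all genes tested.

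**Figure D3:**
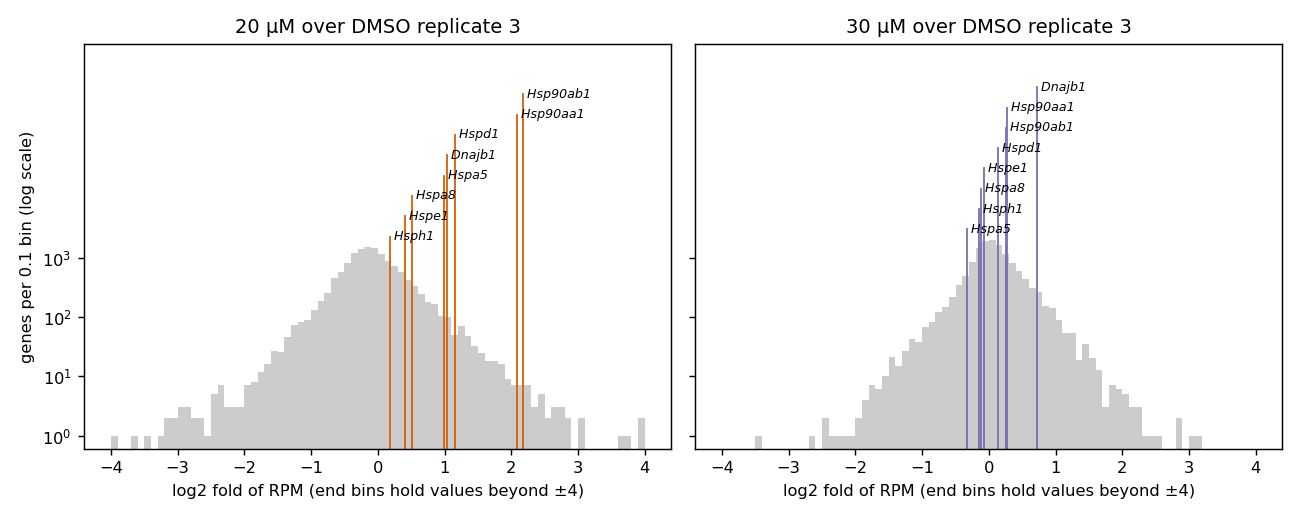
Number of genes (y axis, log scale) by log2 fold of RPM over DMSO replicate 3 (x axis) at 20 µM (13581 genes) and 30 µM (13596 genes), leaving out genes listed at 0 in either library. Lines mark the members and their height has no meaning. At 20 µM Hsp90aa1 and Hsp90ab1 lie in the upper tail, and at 30 µM the members lie in the body of the distribution.

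No member had all 4 inhibitor libraries above, or all 4 below, all 3 DMSO libraries, which 1.94% and 1.87% of all genes tested had. Without DMSO replicate 3, Hspd1 and Hspe1 had all 4 above the remaining DMSO libraries, as did 5.58% of all genes tested. With TMM factors, Hsp90aa1 had all 4 above all 3, as did 1.76% of all genes.

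The wider chaperone network was described with 6 lists of 93 genes, 92 of them in the table and 89 tested. None of the 89 passed in limma, edgeR or DESeq2 at 10 µM or in the dose trend, with 0 and 5 at an unadjusted p under 0.05 in limma. At 20 µM, 4 of the 89 were more than 2-fold higher than in DMSO replicate 3 and none more than 2-fold lower, where 3.17% and 3.23% of all genes tested were. Of 9 genes of the HSF1 axis tested, 1 was among them, Hspb1 (3.36-fold, from 1.63 to 5.48 RPM), a small heat shock protein, which was at 1.15-fold and 1.42-fold over DMSO replicates 1 and 2 and had 6.09 RPM in 10 µM replicate 2. The genes with the highest levels in that list, Hsf2bp and Chordc1, stood at 0.761-fold and 1.08-fold at 20 µM and at 0.884-fold and 1.08-fold at 30 µM. Of 19 Hsp70 and Hsp110 partners 1 was past 2-fold, Bag5 (2.01-fold, and 1.38-fold and 1.21-fold over DMSO replicates 1 and 2), while Hspa4, an Hsp110 relative, stood at 1.39-fold and Dnajb6, a J-domain protein, at 0.593-fold. None of the 15 Hsp90 cochaperones was past 2-fold in either direction. Fkbp5 and Ppid, prolyl isomerases that bind Hsp90, stood at 0.807-fold and 1.18-fold.

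Of 20 ER chaperones and unfolded protein response (UPR) genes, 2 were past 2-fold higher at 20 µM, where 3.17% of all genes tested were, the lectin chaperone Calr (2.53-fold, from 87.4 to 221 RPM) and the disulfide isomerase P4hb (2.04-fold, from 48.0 to 98.0 RPM). Over DMSO replicates 1 and 2 Calr was at 1.82-fold and 1.99-fold and P4hb at 1.65-fold and 1.91-fold. In RPM, none of the 4 list genes was thus past 2-fold over those controls. Calr lay just under the threshold, and TMM factors (0.902 at 20 µM, 1.06 and 1.03 in DMSO replicates 1 and 2) would raise these folds. The 3.17% of all genes holds for RPM over DMSO replicate 3 only. Canx and Hsp90b1, the most abundant of that list, stood at 1.20-fold and 1.42-fold. None of the 13 mitochondrial chaperones and proteases was, with Hspa9, the mitochondrial Hsp70, at 1.34-fold and the protease Yme1l1 at 0.999-fold. None of the 13 genes of the cytosolic chaperonin TRiC and its partner prefoldin was either, with Cct4 at 1.06-fold and Cct8 at 1.47-fold. The median log2 folds at 20 µM were 0.12 (HSF1 axis), 0.04 (Hsp70 and Hsp110 partners), 0.21 (Hsp90 cochaperones), 0.13 (ER), -0.07 (mitochondria) and 0.39 (TRiC and prefoldin), against 1.01 for the members. At 30 µM none of the 89 genes was past 2-fold, where 2.35% of all genes were higher and 1.34% lower, and the list medians ran from -0.10 to 0.11. With the replicate block, 3 of the 89 were called higher at 10 µM in limma, against 4.13% of all genes tested, a share near that of the lists. They were the TRiC subunits Cct4 (0.23, adjusted p = 0.0157), Cct5 (0.21, adjusted p = 0.0424) and Cct6a (0.25, adjusted p = 0.0140 in limma), and none was called lower. Genes past 2-fold, these 3 and the 5 genes that stand out at 20 µM were named after their values were seen.

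**Figure D4:**
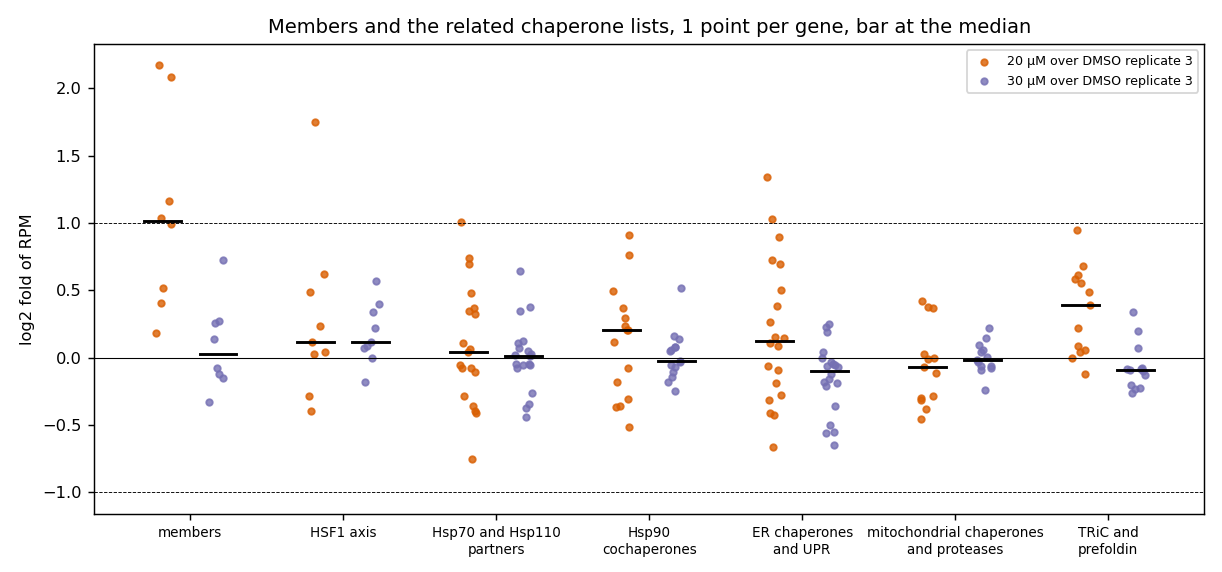
Log2 fold of RPM over DMSO replicate 3 (y axis) at 20 µM and 30 µM for each tested gene of the members and of the 6 related lists (x axis), with bars at the medians and dashed lines at 2-fold. The member medians are 1.01 at 20 µM and 0.03 at 30 µM, and the medians of the other lists lie between -0.10 and 0.39.

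The 8 members tested did not share a single profile. Over the 7 libraries, as a description, Pearson's r was 0.962 between Hsp90ab1 and Hspd1 but -0.516 between Dnajb1 and Hspd1, -0.341 between Hspa8 and Hspd1 and -0.333 between Dnajb1 and Hsp90ab1, so the mean of the members' centred levels is not the profile of each. Among 10730 other genes whose mean reached 5 RPM, the 5 whose levels over the 7 libraries were most like the mean centred profile of the members were Ssrp1 (Pearson's r = 0.998), Tceal8 (0.991), Cox6c (0.991), Cetn2 (0.988) and Bex1 (0.987). All points share the same libraries, and each of these genes was highest at 20 µM. Ssrp1, a subunit of the histone chaperone FACT, had 63.7, 63.0 and 58.9 RPM in DMSO, 66.3 and 72.1 RPM at 10 µM, 109 RPM at 20 µM and 59.1 RPM at 30 µM.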

How the data were processed

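ChrRNA-seq libraries of C7H8 XX mES cells were used, 7 in all, with groups taken from the sample labels. Before deposit the authors filtered out rRNA with bowtie2, used STAR to place reads on N-masked mm10, retained those with a single alignment, assigned pairs to each gene's full transcribed length by strand (featureCounts) and scaled them with edgeR to RPM. The mm10 gene annotation came from the UCSC genome browser. Starts in the table count from 0 and are given 1-based here. The deposited span of each gene gave RPM per kb. Deposited allelic ratios hold X-linked genes only and were not used.

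The step between low RPM values of a library gave back its whole read pairs (100% of values whole within 0.1). A gene entered limma 3.58.1 (eBayes with trend) on log2(RPM + 1) if its mean reached 1 RPM, with Benjamini-Hochberg adjusted p under 0.05. In R 4.3.3, edgeR 4.0.16 and DESeq2 1.42.0 on those read pairs, a pseudocount of 0.1, a filter of 5 RPM or none, TMM factors, no eBayes trend, the replicate block, the library set and each library left out were alternatives. The fold of RPM + 1 was added after seeing the data. Single libraries carry Wilson or exact intervals (95%). Python 3.11.15, numpy 2.4.6, pandas 2.3.3, scipy 1.17.1 and matplotlib 3.10.9 did the rest. The fits were tested on simulated counts.

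The study's methods state that wells of 1 biological replicate came from 1 batch of cells, and the labels give DMSO and 10 µM the numbers 1 and 2. The difference between replicates 1 and 2 of DMSO correlated with that between the 10 µM replicates across 13599 genes (r = 0.621). The replicate block used these 4 libraries and gave Hsp90aa1 a log2 difference of 0.24. The members and lists were chosen with earlier results of these data known. All 10 members were named, with the genes of each list past the limma threshold at 10 µM or in the dose trend or, as none passed, the 2 with the highest mean RPM, and the 5 genes most like the members' mean profile.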

Additional observations from a re-analysis of the deposited data

How the results depend on the processing

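With 10 µM against DMSO, the replicate block raised the count of genes called from 0 to 1020, that of members from 0 to 3 and that of genes on the chaperone lists from 0 to 3. DESeq2 called 1 gene, and leaving out a DMSO or 10 µM replicate called 0 to 1. In the dose trend, DESeq2 called 129 genes, the library set 27, and leaving out a replicate 0 to 2485, the highest without DMSO replicate 3, while no member was called in any of these. The cause was not tested. 3 members changed sign at 10 µM. Hspd1 stood at -0.11 with edgeR, -0.12 with DESeq2 and -0.059 with TMM factors, and from -0.11 to 0.25 without 1 replicate. Hsp90ab1 stood at 0.070 with the replicate block and from -0.18 to 0.070 without 1 replicate, and Hspa5 from -0.11 to 0.044. In the dose trend, the library set turned Hspa8 to 0.040 and Dnajb1 to 0.19. Leaving out the 30 µM library turned Hspa8 to 0.13, Hspa5 to 0.33, Hsph1 to 0.063 and Dnajb1 to 0.075. Hspa5 was at 0.11 with edgeR, 0.10 with DESeq2 and 0.025 with TMM factors, Hsph1 at 0.0026 with edgeR, and Hspa5 ran from -0.045 to 0.0079 without 1 replicate. At 20 µM, the log2 fold of Dnajb1 was -0.53 and -0.70 over DMSO replicates 1 and 2 and -0.25 over the mean of DMSO. In RPM at 30 µM, 1 member (Dnajb1) was past 2-fold lower over DMSO replicate 2 (0.496-fold), and with TMM factors it stood at 0.537-fold. The 1.34% of all genes past 2-fold lower holds for DMSO replicate 3 as the control, and the share over DMSO replicate 2 was not counted. With TMM factors 1 member had all inhibitor libraries above the DMSO range, and without DMSO replicate 3 it was 2. Of 304 alternative values of single members, 242 kept their direction and side of the threshold or moved by less than the DMSO spread, 24 reversed, 35 folds moved further and 3 were called with the replicate block. The 242 are no measure of stability, because the direction of many could not change. Another filter or no eBayes trend leaves the log2 difference or slope of a gene as it is. Leaving out a 10 µM replicate does the same to the slope. Of the RPM folds not past 2-fold, 10 also changed sign over another DMSO control. They were those of Hspa8 and Hsph1 at 20 µM and of Dnajb1, Hspe1 and Hsp90aa1 at 30 µM. With TMM factors, the folds of Hspa8, Hsph1 and Hsp90aa1 at these doses stayed above 1 over DMSO replicates 1 and 2. The dose trend was not fitted with a replicate block, since only DMSO and 10 µM have replicate numbers in common. Hspa1a and Hspa1b, with 38 and 64 read pairs in all, were fitted only with no filter, where neither passed.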
